A study of Arabidopsis thaliana with 9 samples.

Results

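Plastid genes are transcribed by polymerases that depend on the nucleus for essential parts, and the 7 nuclear genes described here encode the sigma factors SIG1 to SIG6 and RPOTp, the phage-type RNA polymerase of plastids. They were chosen by locus, in both comparisons of the study, and all 7 were found among the 37328 loci of the authors' deposited table and were tested there. RNA was sequenced from whole Arabidopsis thaliana seedlings of the Col-0 ecotype, kept for 7 days at 22 °C under constant white light (50 µmol per m2 per second). The genotypes were the wild type, a glk1/glk2 double mutant of the GOLDEN2-LIKE genes (glk12) and an RPGE2 overexpressor (RPGE2-OX), each with 3 replicates. All 3 genotypes shared the ecotype and the growth regime, in which seeds first spent 3 days in the cold at 4 °C. The GLK proteins switch on nuclear photosynthesis genes, and RPGE2 belongs to a family described as repressors of the GLK proteins. The promoter that drives RPGE2 and the number of independent lines are not stated in the labels.

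Chloroplasts use a polymerase of bacterial type, whose core subunits rpoA, rpoB, rpoC1 and rpoC2 are plastid genes, and which needs a sigma factor from the nucleus to recognise a promoter. RPOTp is a single-subunit enzyme related to phage polymerases; it is encoded in the nucleus and transcribes housekeeping genes of the plastid, among them the genes for the core of the bacterial-type enzyme. During greening, the bacterial-type enzyme takes over most transcription of photosynthesis genes, and it does so in a large complex with nuclear polymerase-associated proteins (PAPs).

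The table holds 1 log2 ratio over the wild type and 1 q value per locus and line, per the file headers, and neither levels nor values per library. Depth is therefore unknown, values by sample and SDs cannot be given, and the labelled tissue cannot be checked by marker levels. A locus was called at a q below 0.05. In glk12, 5.67% of 21843 tested loci were called, and in RPGE2-OX 6.55% of 21680 were. The labels do not say whether replicates were grown as separate cultures, so the spread behind the q values may be technical. The targeted genes fell in the mutant: GLK1 was 6.22-fold lower and GLK2 2.65-fold lower in glk12 in the authors' deposited table, both at q = 0.00191. In RPGE2-OX both genes were higher than in the wild type in the deposited table. GLK1 had a log2 ratio of 0.45, 1.37-fold higher (q = 0.0132), and GLK2 one of 0.40, 1.32-fold higher (q = 0.0379).

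Upstream sequence is shown because SIG1 fell and RPOTp rose in both lines, with the other members not called. The windows cover the 250 bases before each annotated gene start on the TAIR10.1 assembly from RefSeq. The start of SIG1 lies 3 bases from that of AT1G64850, a protein-coding gene on the opposite strand, so nearly the whole SIG1 window lies inside AT1G64850 and only short sites of it are printed. The windows of SIG2, SIG3 and SIG6 also reach into other annotated loci, AT1G08530, AT3G00910 and AT2G37000. RPOTp had an upstream window with no other annotated locus in it (chr2:10254642-10254891, minus strand, GC content 22.4%), and it is printed in full, 5′ to 3′, with no capitals because none of the searched motifs occurred in it.
RPOTp upstream: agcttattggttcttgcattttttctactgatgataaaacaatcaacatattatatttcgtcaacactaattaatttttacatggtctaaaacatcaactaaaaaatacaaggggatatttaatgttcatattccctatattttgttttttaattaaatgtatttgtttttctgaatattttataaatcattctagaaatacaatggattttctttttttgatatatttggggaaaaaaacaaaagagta

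Both strands of each window were searched for CCAATC, reported upstream of GLK-responsive genes, for GATTCT, described for GLK binding, for the G-box CACGTG and for the I-box GATAAG. Neither SIG1 nor RPOTp, the members that changed, had a match to any of these 4 motifs. Among all 27443 windows of protein-coding nuclear genes, 10.2% held CCAATC, 15.9% held GATTCT, 6.49% held the G-box and 12.3% held the I-box. SIG2 held CCAATC in 2 copies, on the opposite strand, while SIG3 and SIG6 each held GATTCT in 1 copy and SIG3 also held 1 I-box. A further motif, the site II element TGGGCC, was added after the windows had been read. It occurred in 4 of the 7 member windows (SIG1, SIG2, SIG4 and SIG6), against 13.7% of all windows. These sites are printed below on the gene's strand, with the site II letters in capitals, for SIG1, which fell in both lines, and for SIG2, SIG4 and SIG6, which were not called. In SIG2 the site farther upstream overlaps 1 of the CCAATC copies. In SIG6 the site II match spans the annotated start of AT2G37000, on the opposite strand, and the GATTCT match lies inside that gene.
SIG1 (chr1:24097695-24097720, plus strand): gttggtcaacGGCCCAtttatttgcg
SIG1, farther upstream (chr1:24097670-24097695, plus strand): gtgacgaattTGGGCCaatttatatg
SIG2 (chr1:2703270-2703294, plus strand): aaagttaataGGCCCAaaagaagtg
SIG2, farther upstream (chr1:2703254-2703279, plus strand): tgattgggatTGGGCCaaagttaata
SIG4 (chr5:4431110-4431135, minus strand): ccaattttatTGGGCCtttttatggg
SIG6 (chr2:15540232-15540257, minus strand): cccaatataaGGCCCAacatgatcca

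These letters therefore occur upstream of a gene that fell and upstream of genes that were not called. A match is a description of the sequence and no evidence of a bound factor.

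Of the 7 members, SIG1 was lower and RPOTp was higher than in the wild type in glk12, and the same genes moved in the same directions in RPGE2-OX. The other 5 sigma factor genes passed the threshold in neither line. The 2 calls of 7 in each line stand beside backgrounds of 5.67% and 6.55% of all tested loci. The rule names loci and no values, but the members were chosen with earlier results of these data known. These counts are therefore a description only. Both comparisons use the same wild-type libraries, so the likeness of the lines is given as values side by side only.

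SIG1 (AT1G64860, chromosome 1, 24097736 to 24100970 on TAIR10.1, plus strand, 10 exons) encodes a sigma factor that has been linked to transcription of the photosystem genes psaA and psbB. In glk12, SIG1 was 2.76-fold lower, with a log2 ratio of -1.47 and q = 0.00191 in the authors' deposited table. In RPGE2-OX the deposited ratio was -1.39, or 2.62-fold lower, at q = 0.00176. Both q values are the lowest in their column and are shared by 571 and 615 loci. The size implied for the error of the ratio is then an upper bound, 0.36 in glk12 and 0.34 in RPGE2-OX, and the widest 95% intervals it allows run from -2.18 to -0.76 and from -2.06 to -0.72. Of the tested loci with a finite ratio, 1.45% lay below SIG1 in glk12 and 1.46% in RPGE2-OX. Its divergent neighbour AT1G64850 was not called in either line, at -0.01 in glk12 (deposited q = 0.992) and -0.27 in RPGE2-OX (deposited q = 0.37). No annotated locus overlapped SIG1.

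RPOTp (AT2G24120, chromosome 2, 10248851 to 10254641, minus strand, 19 exons), listed there under the names SCA3 and PDE319, moved the other way. The authors' deposited table gave it a log2 ratio of 0.60 in glk12, 1.51-fold higher (q = 0.0256), and of 0.48 in RPGE2-OX, 1.39-fold higher (q = 0.0103). The implied 95% intervals were 0.24 to 0.95 and 0.21 to 0.74. RPOTp lay above 92.9% of tested loci in glk12 and above 92.8% in RPGE2-OX, so it lay nearer to the middle of all loci than SIG1 did. Both calls were lost at a q below 0.01. A pseudogene on the same strand, AT2G24110, shares 4 bases with the annotated gene and was not called in the deposited table (q = 0.987 and 0.903).

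**Figure D1:**
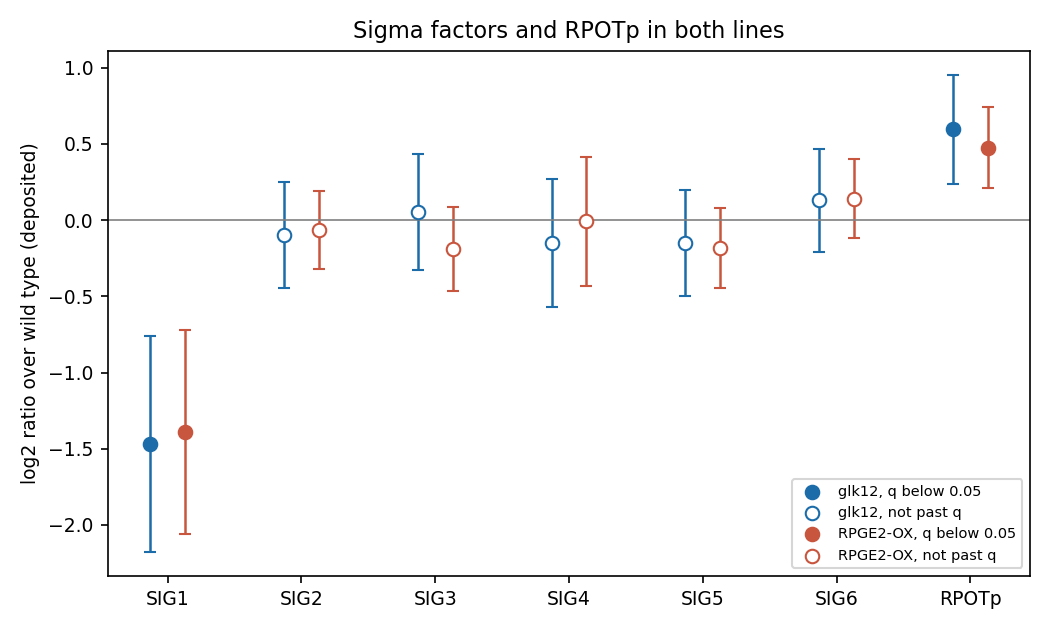
Deposited log2 ratios over the wild type of the 7 members in glk12 (blue) and RPGE2-OX (red), with 95% intervals implied by the deposited ratio and q value. Filled points have a q below 0.05. The SIG1 intervals are the widest allowed, and that of SIG4 in RPGE2-OX uses its error in glk12. SIG1 sits at -1.47 and -1.39, RPOTp at 0.60 and 0.48, and the intervals of the other 5 genes include 0.

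The sigma factors that were not called have been assigned distinct plastid promoters. SIG2 (AT1G08540), which serves plastid tRNA genes and psaJ, was at -0.10 in glk12 (deposited q = 0.914) and at -0.06 in RPGE2-OX (deposited q = 0.92). Its implied 95% intervals ran from -0.45 to 0.25 and from -0.32 to 0.19, so neither included a fall of the size seen in SIG1. SIG6 (AT2G36990), a general sigma factor of young seedlings, had ratios above 0 in the deposited table, 0.13 (q = 0.854) and 0.14 (q = 0.709), with intervals of -0.21 to 0.47 and -0.12 to 0.40. These are the sigma factors whose loss is known to give pale seedlings.

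SIG3, SIG4 and SIG5 serve narrower sets of promoters. SIG3 (AT3G53920), linked to psbN, was at 0.05 in glk12 (q = 0.973) and at -0.19 in RPGE2-OX (q = 0.576) in the deposited table. SIG4 (AT5G13730), linked to ndhF, was at -0.15 (q = 0.865) and -0.01 (q = 0.991) there. SIG5 (AT5G24120), which responds to blue light and stress and drives the light-responsive promoter of psbD, was at -0.15 (q = 0.817) and -0.18 (q = 0.566) in the deposited table. Over these 3 genes and both lines, the implied 95% intervals stayed between -0.57 and 0.43. For SIG4 in RPGE2-OX the error was that of SIG4 in glk12. AT5G13720, which lies on the strand opposite to SIG4 and shares 201 bases with it, was not called (q = 0.766 and 0.922 in the deposited table). The libraries were stranded, per the labels' protocols, while the strand setting used in counting is not stated, so reads of this pair may not be fully separated. ZIF1, 1396 bases from SIG4 on the opposite strand, rose in glk12, at 0.69 (deposited q = 0.00754). In RPGE2-OX ZIF1 was not called (deposited q = 0.995). Next to SIG5 lies WRKY30, a stress-responsive transcription factor gene 2441 bases away. WRKY30 rose in both lines in the deposited table, with log2 ratios of 4.05 (q = 0.00191) and 2.13 (q = 0.0168).

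**Figure D2:**
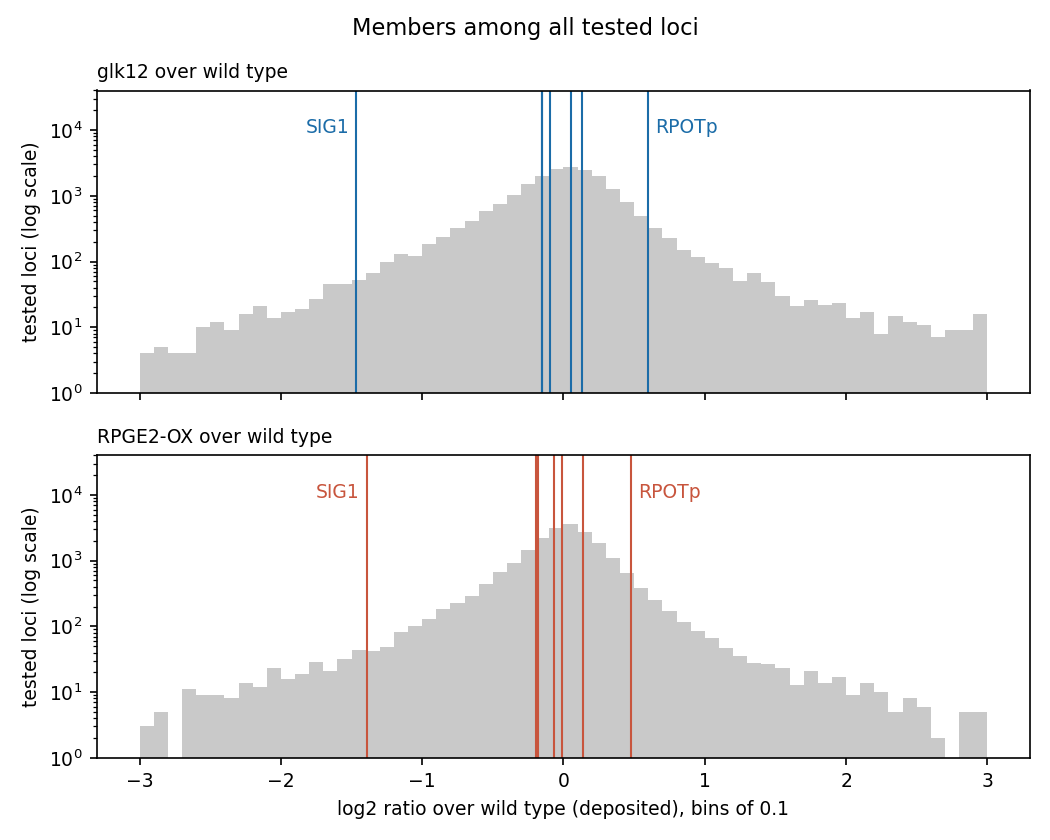
Number of tested loci per bin of 0.1 of the deposited log2 ratio (log axis, loci between -3 and 3) in glk12 and in RPGE2-OX, with a vertical line for each of the 7 members. SIG1 lies in the lower tail and RPOTp on the upper shoulder, while the lines of the other 5 genes lie between -0.19 and 0.14, within the central mass.

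The aliases in the table list SIG1 and SIG2 under both loci, AT1G64860 and AT1G08540, so names alone do not separate them, and the values above were taken by locus. All 7 members had ratios that no other locus shared. Gene length on the annotation ran from 1807 bases for SIG4, with 4 exons, to 5791 bases for RPOTp. The coding length of the sigma factors ran from 1260 bases for SIG4 to 1719 for SIG2, and that of RPOTp was 2982.

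**Figure D3:**
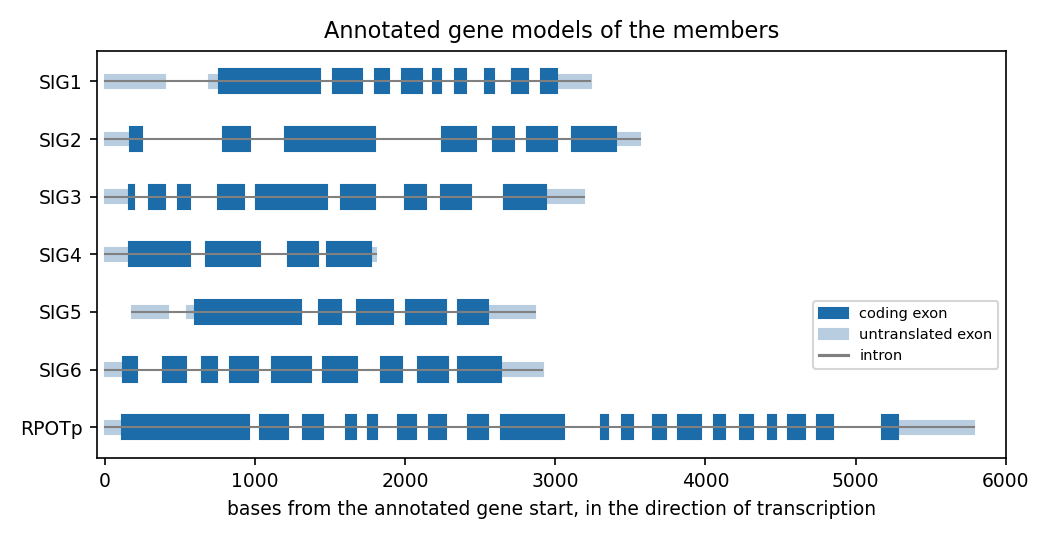
Annotated gene models of the 7 members on TAIR10.1, drawn to scale from the annotated gene start in the direction of transcription, for the transcript with the longest coding sequence; dark boxes are coding exons, light boxes untranslated exons and lines introns. RPOTp is the longest gene with 19 exons and SIG4 the shortest with 4.

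Whether the lines differed from each other was tested on the difference of the deposited ratios, RPGE2-OX minus glk12, with the implied errors added as variances and Benjamini-Hochberg adjustment over 21380 loci. The difference was 0.08 for SIG1, with an approximate 95% interval of -0.90 to 1.05, and -0.12 for RPOTp, with an interval of -0.56 to 0.33. After adjustment none of the 7 members passed, against 0.15% of all loci. At an unadjusted p below 0.05, 0 members passed, against 3.6% of all loci. The largest difference among members was that of SIG3, -0.24 with an interval of -0.71 to 0.23. The wild-type libraries are common to both ratios while the errors were added as if independent, and both errors of SIG1 are upper bounds. These points make the intervals too wide. If the replicates were not separate cultures, the spread may be technical and the intervals too narrow. The net effect is not known. A miss in this test does not show that the lines act alike.

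The polymerase that the sigma factors serve was looked at next. The 4 plastid genes for its core were not called in either line: the deposited ratios of rpoA, rpoB, rpoC1 and rpoC2 ran from 0.02 to 0.24 in glk12 and from 0.01 to 0.27 in RPGE2-OX. The relatives of RPOTp, RPOTm of mitochondria and RPOTmp of mitochondria and plastids, were not called either. RPOTm was at 0.54 in glk12 (deposited q = 0.226) and at 0.32 in RPGE2-OX (deposited q = 0.4). RPOTmp was at 0.57 (q = 0.222) and 0.22 (q = 0.708) in the deposited table, so in glk12 both relatives had ratios close to that of RPOTp but did not pass.

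Of 14 genes for polymerase-associated proteins, 7 rose in RPGE2-OX, 7 did not pass and none fell in the authors' deposited table, where 2.57% of all tested loci were called higher, and their median ratio was 0.45 against 0.01 over all tested loci. With at least 1.5-fold, 4 of the 14 were called. The genes that rose were PAP4 (FSD3) and PAP9 (FSD2), iron superoxide dismutases, PAP5 (HEMERA), which also acts in phytochrome signalling, PAP3 (PTAC10), PAP6 (FLN1), FLN2, a relative of PAP6, and PRIN2, a redox-linked protein of plastid transcription. FLN2 was 1.61-fold higher at q = 0.00176 in the deposited table, as was PAP4 at 1.61-fold. PRIN2 was 1.54-fold, PAP5 1.55-fold (q = 0.00815), PAP6 1.47-fold and PAP3 1.44-fold (q = 0.00465) higher there, at q = 0.00176 where no other q is given. PAP9 had a log2 ratio of 0.58 at the same q in the deposited table.

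In glk12, 1 of the same 14 genes rose, PAP3, with a log2 ratio of 0.59 in the deposited table (q = 0.0347), where 2.63% of all tested loci were called higher. The median ratio was 0.25 against 0.02 over all tested loci, and 13 of the 14 ratios lay above 0 in each line. PAP12 (PTAC7) was the gene below 0, at -0.35 in glk12 (deposited q = 0.338) and -0.17 in RPGE2-OX (deposited q = 0.638). The difference between the lines was not called for any of the 14 genes, also not at an unadjusted p below 0.05, and its median was 0.17. Centred on the reference genes, the medians were 0.12 in glk12 and 0.47 in RPGE2-OX, with 12 and 13 of the 14 ratios above 0.

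**Figure D4:**
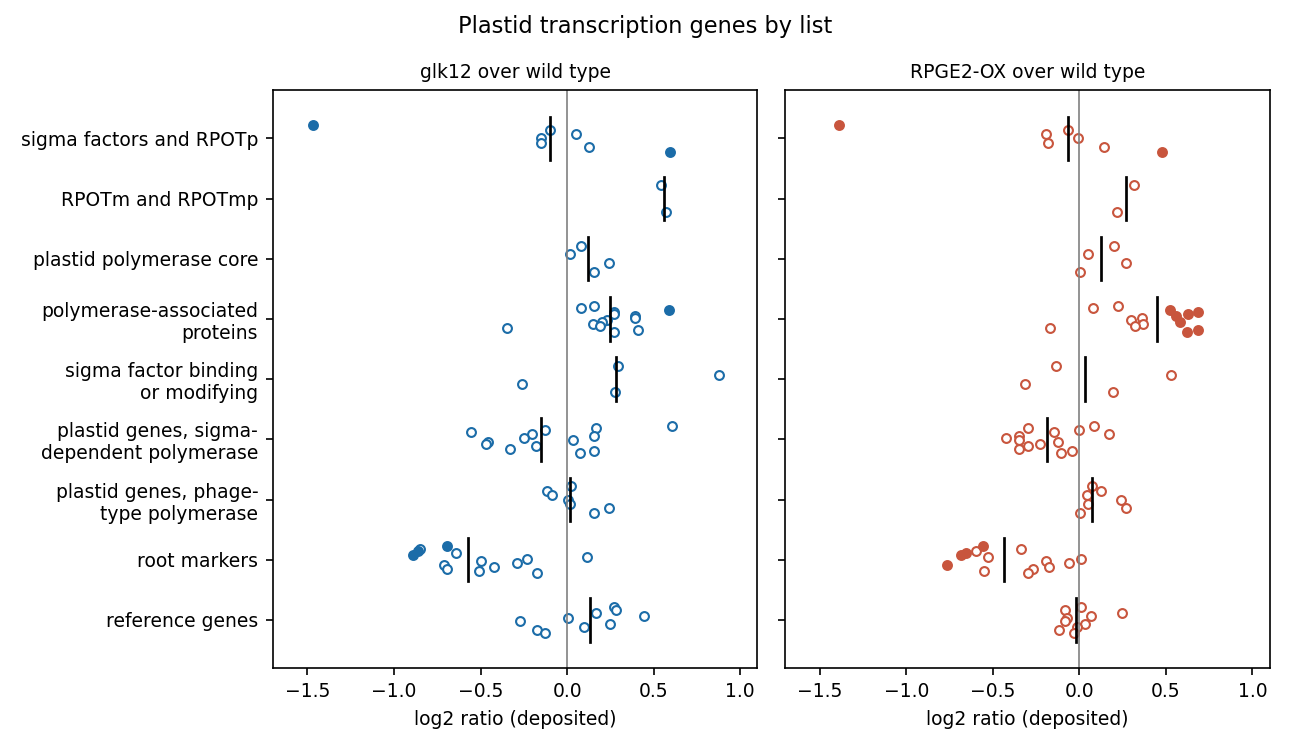
Deposited log2 ratios over the wild type by gene list in glk12 and RPGE2-OX; each point is a tested gene, filled where q was below 0.05, and black bars are list medians. The polymerase-associated protein genes have a median of 0.25 in glk12 and 0.45 in RPGE2-OX, and the root markers medians of -0.57 and -0.43.

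Proteins that bind or modify sigma factors were not called. SIB1 and SIB2 bind SIG1 in the plastid, CSK is a sensor kinase proposed to act on SIG1, and cpCK2 is a plastid casein kinase. Over these 4 genes the deposited ratios ran from -0.26 for CSK to 0.88 for SIB2 in glk12 and from -0.31 for CSK to 0.53 for SIB2 in RPGE2-OX. The values of SIB2 had q values of 0.53 and 0.677 in the deposited table.

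Among 13 genes upstream of plastid transcription, 5 rose in RPGE2-OX and none fell, and in glk12 GLK1 and GLK2 fell and none rose. Of all tested loci, 2.57% were called higher in RPGE2-OX and 3.04% lower in glk12. The 5 rises dropped to 2 at a q below 0.01 and to 1 with at least 1.5-fold. Besides GLK1 and GLK2, the genes that rose in RPGE2-OX were HY5, a light-signalling bZIP factor that acts on SIG5, LHY, a clock factor, and RCB, which promotes assembly of the plastid polymerase. HY5 had a log2 ratio of 0.58 in RPGE2-OX (deposited q = 0.00327) and of -0.02 in glk12 (deposited q = 0.989). Its difference between the lines, 0.61 ± 0.25 (implied SE), did not pass after adjustment over all loci. RCB was 1.59-fold higher (q = 0.0059) and LHY 1.37-fold higher (q = 0.0176) in RPGE2-OX in the deposited table. CRY1, CRY2, PHYA and PHYB, which encode photoreceptors, HYH, CCA1, GUN1 and NCP passed in neither line, with deposited ratios from -0.32 for PHYB to 0.39 for HYH in RPGE2-OX.

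Plastid transcripts read by the polymerases were tested in part. Of 18 plastid genes read by the sigma-dependent polymerase 14 were tested and none was called in either line. Of all tested loci, 5.67% were called in glk12 and 6.55% in RPGE2-OX. The median ratios of the 14 genes were -0.15 in glk12 and -0.19 in RPGE2-OX in the deposited table. Ratios lay below 0 for 8 of the 14 in glk12 and for 12 in RPGE2-OX. Some implied 95% intervals were wide, such as -0.26 to 1.47 for psbD in glk12. Others, not adjusted for the number of loci, lay wholly below 0: psbT, psaJ and ndhF in glk12, and psbH, psbE and psbF in RPGE2-OX. None lay wholly above 0. In glk12 psaJ was at -0.46 (deposited q = 0.133) and ndhF at -0.47 (deposited q = 0.242). In RPGE2-OX they were at -0.12 and -0.23. The lack of a call therefore does not show that a plastid transcript was unchanged. psbA, psaA, psaB and rbcL were listed at a ratio of 0 with a q of 1 and were not tested, so the psaA transcript linked to SIG1 has no value here. The psbB gene, also linked to SIG1, was at -0.13 in glk12 (deposited q = 0.941) and 0.00 in RPGE2-OX (deposited q = 0.996). Of 11 plastid loci read mainly by the phage-type enzyme 7 were tested and none was called, beside the same shares of all loci, with medians of 0.02 and 0.07. The ycf2 and rpl23 genes enter this list with both of their loci, all untested. The tested loci include rpoB, rpoC1 and rpoC2, already given with the polymerase core. accD, a fatty acid synthesis gene and a standard readout of RPOTp, was at 0.03 (q = 0.987) and 0.07 (q = 0.913), and clpP was at -0.12 (q = 0.918) and 0.13 (q = 0.842) in the deposited table.

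Root, an organ without green chloroplasts, was followed by 14 markers, of which 13 had ratios below 0 in each line and most did not pass. Of these markers 3 fell in glk12, where 3.04% of all tested loci were called lower, and 4 fell in RPGE2-OX, where 3.98% were; at a q below 0.01 the count was 1 in each line. Their medians in the deposited table were -0.57 and -0.43, over ranges of -0.89 to 0.12 and -0.77 to 0.01. RCI3, a peroxidase, and COBL9, a root hair gene, fell in both lines, EXPA18 in glk12, and PRP3 and SKOR in RPGE2-OX. The part of organ proportions in the results on SIG1, RPOTp and the PAP genes was not tested, and in whole seedlings fewer cells of a type and less RNA per cell cannot be told apart.

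The loci whose pair of ratios lay nearest to a member that was called in both lines were listed by Euclidean distance over the 2 comparisons, among 658 loci called in both. Nearest to SIG1 were PSAK, PSAD-1 and PSBTN, nuclear genes for photosystem subunits, followed by AT3G21050 and AT5G59080. PSAK, at a distance of 0.02, had deposited ratios of -1.45 in glk12 and -1.38 in RPGE2-OX, and PSAD-1 had -1.51 and -1.47 there. Nearest to RPOTp were BET10, a bromodomain protein gene, AT1G57770, GME, an enzyme gene of ascorbate synthesis, PDE340 and AT5G14840, at distances of 0.01 to 0.04. Likeness over 2 ratios that share their controls is a description and carries no test.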

How the data were processed

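The 9 libraries, 3 per genotype, were stranded and each was made from 1 µg of total RNA, per the labels' protocols. The submitters' processing notes name CASAVA 1.8.2, TopHat, Cufflinks, Cuffdiff and the build TAIR10 without saying what each did. The deposited table gives log2 ratios, and its p-value type columns hold q values that the authors computed, per the file headers. How replicates were combined, and in which unit levels were compared, is not stated.

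A locus with q at 1 counted as untested. Infinite ratios stored as text were decoded so that all 1294 loci infinite in both columns had 1 sign. For the difference between the lines, the Benjamini-Hochberg adjustment was undone to regain p values, and the error was the ratio divided by the normal quantile of p. At the lowest p, 5.00e-05, this error is a bound from above. Where that quantile was below 0.1, the larger of both errors was used. The procedure was run on simulated ratios with normal errors drawn independently for both lines. That run could not test the effect of the shared wild type or the normal form of the errors. Python 3.11.15, pandas 2.3.3, NumPy 2.4.6 and SciPy 1.17.1 were used. Named were the members, listed genes that passed in a line, further list genes given as examples or as the ends of a range, and the 5 loci nearest to each member that passed in both lines. Further genes, such as neighbouring loci, were named after their values were seen. Gene models and windows came from RefSeq TAIR10.1, matched by locus; the files give no coordinates. The members and lists were chosen with earlier results of these data known. Alternatives were other thresholds, a minimum fold, another count of tested loci, centring and other error rules.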

Additional observations from a re-analysis of the deposited data

Results flagged for a closer look

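GLK1 and GLK2 differed between the lines in the test of the difference of deposited ratios. The difference, RPGE2-OX minus glk12, was 3.09 ± 0.66 for GLK1 (implied SE) and 1.81 ± 0.37 for GLK2, and both passed the 0.05 threshold after Benjamini-Hochberg adjustment over 21380 loci. Neither passed with a t distribution of 4 degrees of freedom in place of the normal, under which 0 loci were called. Both genes carry the mutations of the glk12 line.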

How the results depend on the processing

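The fall of SIG1 kept its side of the threshold in both lines at a q below 0.01, below 0.1 and with at least 1.5-fold. The rise of RPOTp did not: at a q below 0.01, 0 members rose in glk12 and 0 in RPGE2-OX, and with at least 1.5-fold 0 rose in RPGE2-OX. Centring on all tested loci or on the reference genes turned the direction of neither. At a q below 0.01 the calls fell to 740 loci in glk12 and 824 in RPGE2-OX, and with at least 1.5-fold to 921 in RPGE2-OX. At a q below 0.01, 0 PAP genes rose in glk12, 1 root marker fell in glk12 and 1 in RPGE2-OX, and 2 upstream regulators rose in RPGE2-OX. With at least 1.5-fold, 4 PAP genes and 1 upstream regulator rose in RPGE2-OX. Centring on the reference genes, with medians of 0.13 (glk12) and -0.02 (RPGE2-OX), turned the sign of values that were not called. Among list medians in glk12, that of the plastid polymerase core went from 0.12 to -0.01. That of the plastid genes read mainly by the phage-type enzyme went from 0.02 to -0.12. Among members, SIG3 went from 0.05 to -0.08 and SIG6 from 0.13 to -0.0055 in glk12, and SIG4 from -0.01 to 0.01 in RPGE2-OX. Single genes of the lists turned as well. In glk12 the upstream regulators above 0 went from 5 to 1, and the PAP genes above 0 from 13 to 12.

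The test between the lines called 32 loci (769 at an unadjusted p below 0.05), 138 with the error of the same locus in the other comparison, and 0 with a t distribution of 4 degrees of freedom (1085 unadjusted). No member and no PAP gene passed in any of these. No paired analysis was possible because the table holds no value per replicate, and for the same reason no replicate could be left out. Without levels, the limit that depth sets is unknown.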

Other observations

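Loci whose annotation mentions plastid transcriptionally active or a PTAC name, a set chosen after the table was seen, numbered 20. Of these, 7 are among the PAP genes above. The match was of text only and took in AT2G27402, annotated by its best protein match, and AT1G75125, which has no listed name. In glk12 2 rose and 2 fell, and in RPGE2-OX 6 rose and 2 fell. Over all tested loci, 2.63% were called higher and 3.04% lower in glk12, and 2.57% and 3.98% in RPGE2-OX. PTAC9 (OSB2), a DNA-binding protein gene, was at 0.95 in glk12 (deposited q = 0.00191) and at 0.64 in RPGE2-OX (deposited q = 0.00176). WHY3 (PTAC11), a single-stranded DNA-binding protein gene, was at 0.43 (q = 0.327) and 0.59 (q = 0.0059) in the deposited table, and PTAC17 and PTAC18 rose in RPGE2-OX at 0.54 and 0.64. The genes that fell were PTAC16, at -1.93 in glk12 and -2.04 in RPGE2-OX, and PTAC8, at -1.31 and -1.01 in the deposited table, each at the lowest q. PTAC8 is annotated there as PSAP, a photosystem I subunit.

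Of 34 loci annotated as mitochondrial transcription termination factors, a family that also acts in plastids, 31 were tested. In glk12 0 rose and 1 fell, and in RPGE2-OX 3 rose and 2 fell. Over all tested loci, 2.63% were called higher and 3.04% lower in glk12, and 2.57% and 3.98% in RPGE2-OX. AT2G34620 fell in both lines, at -1.98 in glk12 (deposited q = 0.00191) and -2.86 in RPGE2-OX (deposited q = 0.00176). AT5G07900 fell in RPGE2-OX at -1.52 (q = 0.00176), with -0.09 in glk12 (q = 0.972) in the deposited table. AT1G78930, EMB2219 and BSM rose in RPGE2-OX, at 0.80 (q = 0.00327), 0.75 (q = 0.00176) and 0.41 (q = 0.0356) in the deposited table. These are values of single loci within a chosen set and carry no test of the set.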
